A study of Mus musculus with 2 samples.

Results

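Unspliced assembled models inside introns are stretches of RNA that Cufflinks, a program that joins aligned reads into transcripts, reported as single exons lying between the annotated exons of a gene. They were found here as assembled transcripts with 1 exon and 300 nt or more that lay wholly inside the span of a RefSeq transcript and overlapped no RefSeq exon on either strand. Of 20579 assembled models in the wild-type library, 3797 met the rule, as did 1950 of 20415 in the knockout library. Overlapping models of both libraries were merged into 5043 loci in 2765 host genes. The host of a locus is the gene whose intron around it is the shortest.

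The RNA came from spermatogonial progenitor cells (SPCs), the germ cells that sustain spermatogenesis, of C57BL/6 mouse testes at 8 days after birth. Wild-type mice and mice with a Dnmt3l knockout gave 1 library each. DNMT3L is a partner of the de novo DNA methyltransferases without catalytic activity of its own. RNA was selected with oligo-dT beads and copied with random primers, and no step that marks strand is named. The strand of nearly all unspliced models inside introns is therefore unknown. A strand was listed for 26 of 3797 in the wild-type library and 17 of 1950 in the knockout library. Levels are FPKM, which is scaled by the length of the transcript and by the size of the library. Because each genotype has 1 library, differences cannot be set against replicates and no test was made. The members were selected on the reads themselves, since a model is listed only where enough reads joined, so the counts of models per library describe the members.

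Introns are removed from the primary transcript by the spliceosome, mostly while the polymerase is still on the gene. RNA from inside an intron can be a transcript not yet spliced, an intron kept in a finished mRNA, a transcript that ends early at a poly(A) site in the intron, or an independent transcript that starts there. A class of polyadenylated RNAs with detained introns, kept in the nucleus, is known for genes of splicing factors and their kinases such as Clk1.

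Dnmt3l had 1.67 FPKM in wild-type RNA, was at 0 with the knockout, and holds no locus. All 10 spermatogonial markers were at 1 FPKM or more in both libraries, with summed levels of 845 FPKM for the wild type and 716 FPKM for the knockout. Markers of other testis cells were also present: the summed level of 8 Sertoli cell genes was 283 FPKM for the wild type and 657 FPKM for the knockout, with all 8 higher in the knockout library. Summed levels in the wild-type and knockout library were 350 and 659 FPKM for macrophages, 58.2 and 133 FPKM for Leydig cells, 291 and 450 FPKM for peritubular cells and 35.1 and 66.4 FPKM for endothelial cells. Higher in the knockout library were 6 of 8 macrophage genes and 4 of 5 genes in each of the other 3 sets. Star was listed at 0 in both libraries and Cd68 in the knockout library. Whether these cells have a part in the differences between the libraries was not tested, and in bulk RNA fewer cells of a type and less RNA per cell cannot be told apart. How many animals each library pools is not given in the sources used here. Read counts are not in the files. The coverage that corresponded to 1 FPKM was 1.10 times as high in the knockout library as in the wild-type library, 3.45 against 3.13.

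The sequence of 265 loci could be read, because each lies wholly within 1 exon of a noncoding GENCODE M21 transcript on the strand of its host (build GRCm38, the same assembly as mm10), in 240 of them a transcript that GENCODE classes as a retained intron. The last 200 bases on the side of the host's 3′ end are shown for 6 of them, taken from the highest of each kind. Thrap3 (chr4:126179381-126179580, minus strand) and Srebf2 (chr15:82173490-82173689, plus strand) had a model in the wild-type library only, of 18.3 and 17.9 FPKM. Snrnp70 (chr7:45382070-45382269, minus strand) and Arglu1 (chr8:8682714-8682913, minus strand) had one in the knockout library only, of 27.5 and 24.4 FPKM. Rps6kc1 (chr1:190796148-190796347, minus strand) and Rbm4b (chr19:4758731-4758930, plus strand) had one in both. Capitals mark AATAAA, the most common poly(A) signal, and runs of 8 or more A.
Thrap3: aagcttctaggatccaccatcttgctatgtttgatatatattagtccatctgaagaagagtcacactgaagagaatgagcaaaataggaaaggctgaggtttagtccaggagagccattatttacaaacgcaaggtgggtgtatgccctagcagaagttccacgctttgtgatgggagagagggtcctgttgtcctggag
Srebf2: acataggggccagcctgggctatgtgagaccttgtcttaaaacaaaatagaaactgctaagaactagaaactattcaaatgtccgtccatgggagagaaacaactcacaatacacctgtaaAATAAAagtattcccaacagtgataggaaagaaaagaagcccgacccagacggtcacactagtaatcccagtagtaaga
Snrnp70: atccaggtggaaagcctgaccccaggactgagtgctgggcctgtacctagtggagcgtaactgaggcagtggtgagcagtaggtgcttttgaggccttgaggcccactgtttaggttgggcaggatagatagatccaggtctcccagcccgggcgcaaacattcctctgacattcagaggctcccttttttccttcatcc
Arglu1: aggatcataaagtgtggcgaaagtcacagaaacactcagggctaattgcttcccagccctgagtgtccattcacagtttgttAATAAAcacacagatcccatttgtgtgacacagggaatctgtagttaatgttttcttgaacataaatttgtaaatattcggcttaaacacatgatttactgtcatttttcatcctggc
Rps6kc1: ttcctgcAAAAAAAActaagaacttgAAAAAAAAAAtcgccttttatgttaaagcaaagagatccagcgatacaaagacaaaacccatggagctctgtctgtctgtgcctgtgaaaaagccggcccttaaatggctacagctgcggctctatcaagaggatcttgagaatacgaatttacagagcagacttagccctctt
Rbm4b: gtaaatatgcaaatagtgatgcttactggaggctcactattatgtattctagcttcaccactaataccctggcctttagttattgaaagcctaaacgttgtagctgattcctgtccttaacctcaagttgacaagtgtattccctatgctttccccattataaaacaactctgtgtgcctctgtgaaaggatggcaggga

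Of the 265 windows, 35 (13.2%) held AATAAA on the strand of the host, and 35 (13.2%) held it on the other strand, read as TTTATT. In the first 200 bases of the same loci the shares were 8.68% and 16.2%. A run of 8 A was in 9 windows (3.4%) and a run of 8 T in 12 (4.53%). Over the whole loci, 34 (12.8%) held a run of 8 A and 44 (16.6%) a run of 8 T, while AATAAA was in 76 (28.7%) and the other strand's TTTATT in 104 (39.2%). AATAAA stands in the windows printed for Srebf2 and Arglu1, and a pair of A runs in that for Rps6kc1. The median GC content was 42.5% over the 175 of these loci with a model in the wild-type library only. It was 46.8% over the 70 of the knockout library only and 43.2% over the 20 of both. The other loci, the other introns and the share of repeats were not analysed here, because no genome sequence was used.

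The wild-type library held more intronic models than the knockout library, while the counts of other unspliced models were equal or went the other way. Inside introns there were 3797 models for the wild type and 1950 for the knockout, a ratio of 1.95, covering 3.83 and 1.96 megabases. Outside all RefSeq spans the order was the opposite, with 3685 models for the wild type and 4671 for the knockout. On RefSeq exons the libraries held 1284 unspliced models each, but those of the wild type were longer and covered 4.36 megabases against 3.17, a ratio of 1.38. Intronic models made up 43.3% of unspliced models of 300 nt or more for the wild type and 24.7% for the knockout. Their median level was 1.88 FPKM for the wild type and 1.67 FPKM for the knockout. Because a model is listed only where reads are dense enough, these medians do not show how intronic RNA as a whole compared. All 21 chromosomes with loci had more of them in the wild-type library. The ratio went from 1.34 on chromosome 15 (98 against 73 loci) to 3.05 on the X chromosome (134 against 44), and the Y chromosome had 4 against 0 loci.

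After merging, 502 loci (9.95%) had a model in both libraries, 3193 (63.3%) in the wild-type library only and 1348 (26.7%) in the knockout library only. The shared loci were 13.6% of wild-type and 27.1% of knockout loci. A locus was hosted in both libraries by 703 genes, 33.8% of 2077 wild-type hosts and 50.5% of 1391 knockout hosts. At 2969 (93%) of the loci seen in the wild-type library only, no assembled model of any kind lay over the place in the knockout library, although at 2746 of these the host gene had 1 FPKM or more there. At the other 224 a shorter, longer or spliced model had an exon overlapping it. At 1056 (78.3%) of the loci seen in the knockout library only, the wild-type library had no model, with a host of 1 FPKM or more at 841, and 292 were covered by another kind of model. A missing model is not a level of 0, since the program reports a stretch only where reads are dense enough to join.

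Of 13465 genes with introns and 1 FPKM or more in at least 1 library, 1941 (14.4%) had a locus in the wild-type library and 1223 (9.08%) in the knockout library. The share differed with the level of the gene. A model is listed only where reads are dense enough, and models low against their host can be dropped, so these shares describe listed models only. It was highest in both libraries for genes with a mean of 5 to 10 FPKM, of which 24.4% had a locus for the wild type and 14.6% for the knockout. Among genes of 20 to 50 FPKM the shares were 11.1% and 6.2%, and above 50 FPKM they were 3.44% and 1.6%. Among genes of 0.5 to 1 FPKM the order was the opposite, 2.62% for the wild type and 4.59% for the knockout. Restricted to genes that reached 1 FPKM in each library, 14.8% had a locus for the wild type and 9.1% for the knockout.

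**Figure D1:**
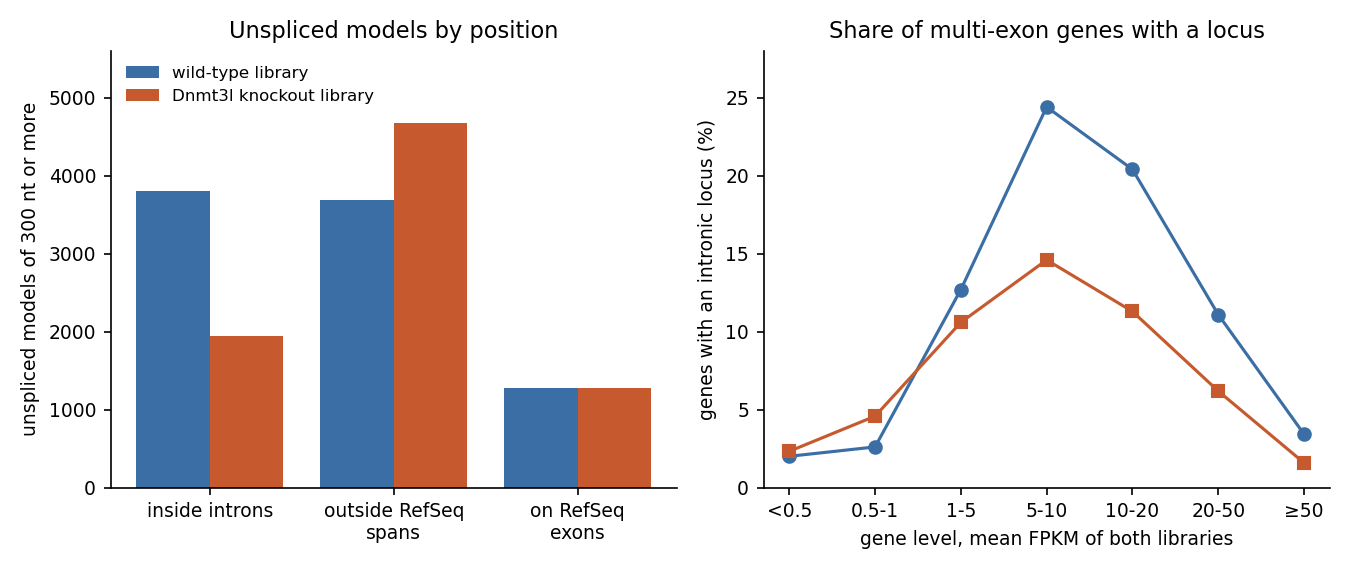
Left, number of unspliced models of 300 nt or more (vertical axis) in the wild-type (blue) and Dnmt3l knockout library (orange) by position: the bars inside introns stand at 3797 and 1950, those outside RefSeq spans at 3685 and 4671, and those on RefSeq exons at 1284 each. Right, percent of multi-exon genes with an intronic locus (vertical axis) by gene level in FPKM (horizontal axis, unequal classes): both lines peak at 5 to 10 FPKM, at 24.4% and 14.6%.

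The host genes themselves were at similar levels in the 2 libraries. Hosts of loci seen in the wild-type library only had a median of 9.17 FPKM there and 9.67 FPKM in the knockout library. Hosts of loci seen in the knockout library only had medians of 6.94 FPKM with the wild type and 7.12 FPKM with the knockout. The median log2 ratio of knockout to wild-type, with 1 FPKM added to each, was 0.10 for the former hosts, 0.09 for the latter and 0.12 for hosts of loci seen in both. Over all 2530 measured hosts it was 0.11, with 177 (7%) at least 2-fold higher and 134 (5.3%) at least 2-fold lower in the knockout library. Among all 13824 genes of 1 FPKM or more in at least 1 library, 7.67% were at least 2-fold higher and 3.49% at least 2-fold lower, with a median of 0.22. With RefSeq transcripts alone, without assembled models, the median of the hosts was -0.04.

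Levels of loci were low against their hosts. Where the host had 1 FPKM or more, the median ratio of locus to host was 0.216 over 3341 wild-type loci (quartiles 0.156 and 0.309) and 0.214 over 1546 knockout loci (quartiles 0.134 and 0.384). A locus above its host was found 46 times (1.38%) for the wild type and 79 times (5.11%) for the knockout. On the mean FPKM over covered bases, 5% of the ratios were below 0.0841 for the wild type and below 0.0602 for the knockout. Cufflinks is known to drop intronic models that are low against the surrounding transcript, and its settings are not given in the sources used here, so fainter intronic RNA would not be listed.

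Loci lay toward the 3′ end of their hosts, most of all those of the wild-type library. Of loci seen in the wild-type library only, 69.2% lay past the midpoint of the host, against 58.1% for the knockout library only and 59.4% for both, while 48.7% of the intron bases of these hosts lay there. Between 90% and 100% of the way along the host lay 20.3% of loci seen in the wild-type library only and 14.8% of those seen in the knockout library only. The last intron held 21.1%, 18.5% and 24.3% of loci seen in the wild-type library only, the knockout library only and both, although it makes up 6.28% of intron bases. The first intron held 17.6%, 23.8% and 24.7%, and makes up 25.1% of intron bases. Most loci stood clear of exons: 722 (14.3%) came within 100 nt of an exon of the host, and 96 (1.9%) covered 80% or more of their intron. The last count is per locus: the pair of loci in intron 7 of Clk1 cover 44.2% and 46.9% of it, and neither is counted, and models that touch a RefSeq exon are outside the rule.

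The 2 libraries also differed in the length of the introns. In introns of 2 to 5 kb there were 1311 loci for the wild type and 501 for the knockout, a ratio of 2.62, and in introns of 5 to 10 kb 935 and 356, a ratio of 2.63. In introns of 50 kb or more the order was the opposite, with 144 loci for the wild type and 254 for the knockout. The loci themselves were of like length, with medians of 779 nt for the wild-type library only and 788 nt for the knockout library only. Those seen in both had a median of 1464.5 nt. A locus seen in both spans the merged models of both libraries, and longer models overlap more easily, so its greater length is partly set by the merging. A GENCODE exon overlapped 37.6% of the loci seen in both libraries, 21.3% of those in the wild-type library only and 26.4% of those in the knockout library only. Longer loci have more room to overlap an exon, and these shares were not matched for length. Of all 5043 loci, 551 (10.9%) overlapped an exon of a transcript classed as a retained intron.

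**Figure D2:**
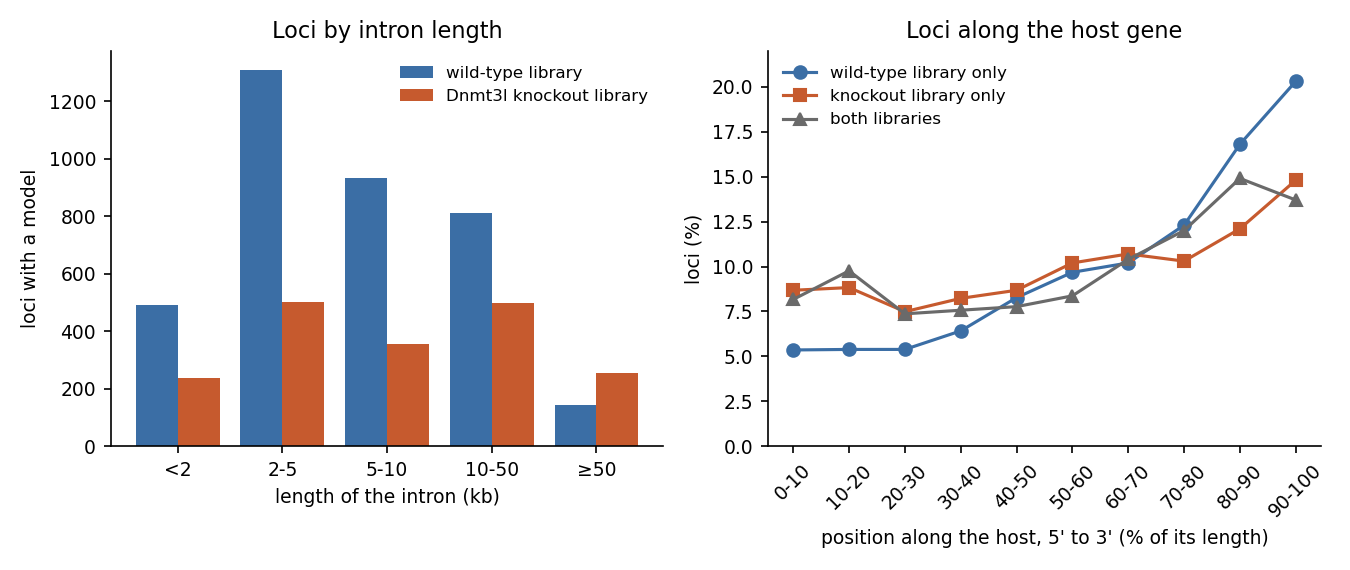
Left, number of loci with a model (vertical axis) in each library by intron length in kb (horizontal axis): the wild-type bars (blue) are higher up to 50 kb, and the knockout bar (orange) is higher above it, 254 against 144. Right, percent of loci (vertical axis) in each successive stretch of the host from 5′ to 3′ (horizontal axis, percent of host length) for loci seen in the wild-type library only (blue), the knockout library only (orange) and both (grey): the blue line reaches 20.3% in the last stretch and the orange line 14.8%.

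Several genes of RNA processing held groups of loci in 1 or 2 introns. Of 29 measured genes of the list of splicing factors and genes known for detained introns, 6 (20.7%) hosted a locus for the wild type and 5 (17.2%) for the knockout, beside 14.4% and 9.08% of all genes. These hosts held 21 and 6 loci, numbers that have no background per gene here. Of the 21, 8 lie in Ptbp2 and 6 in Srsf4, and these 2 genes were looked at after their values were seen. Ptbp2, a splicing repressor of neurons and germ cells, had 8 loci in introns 7 and 8 of 13, of 2.95 to 6.90 FPKM in the wild-type library and none in the knockout library, while the gene was at 37.6 and 32.3 FPKM. Srsf4, a serine/arginine-rich splicing factor, had 6 loci in intron 1, of 4.11 to 5.90 FPKM in the wild-type library, and 1 of them had a model in the knockout library, of 3.50 FPKM. Tra2a, an activator of exon inclusion, had 3 loci in intron 1, of 7.504, 8.58 and 13.1 FPKM, in the wild-type library only, at host levels of 47.7 and 45.5 FPKM. Clk1, a kinase of splicing factors, had loci of 9.81 and 10.8 FPKM in its intron 7 in the wild-type library only. Its host level was not even: the gene stood at 43.2 FPKM for the wild type and 82.9 FPKM for the knockout. On RefSeq transcripts alone it stood at 43.2 and 20.4 FPKM, the opposite order.

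Not all genes of this list went that way. At Clk1 the knockout library had other models over 1 of the places, a spliced one of 6 exons with 25.03 FPKM and an unspliced one of 279 nt with 13.4 FPKM, which is under the length minimum, so some RNA from that intron was listed in both libraries. Ddx17, an RNA helicase, had a locus of 9.50 FPKM in the knockout library only, under a spliced model of 12 exons in the wild-type library. Rbm39 and Srsf11, which also act in splicing, had loci of 8.92 and 6.63 FPKM in the knockout library only. Tia1, which binds U-rich sequences next to splice sites, had 1 locus for the wild type and 2 others for the knockout. Clk3, a related kinase outside the list that was chosen after its values were seen, had 2 loci of 6.77 and 9.74 FPKM in the knockout library only.

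**Figure D3:**
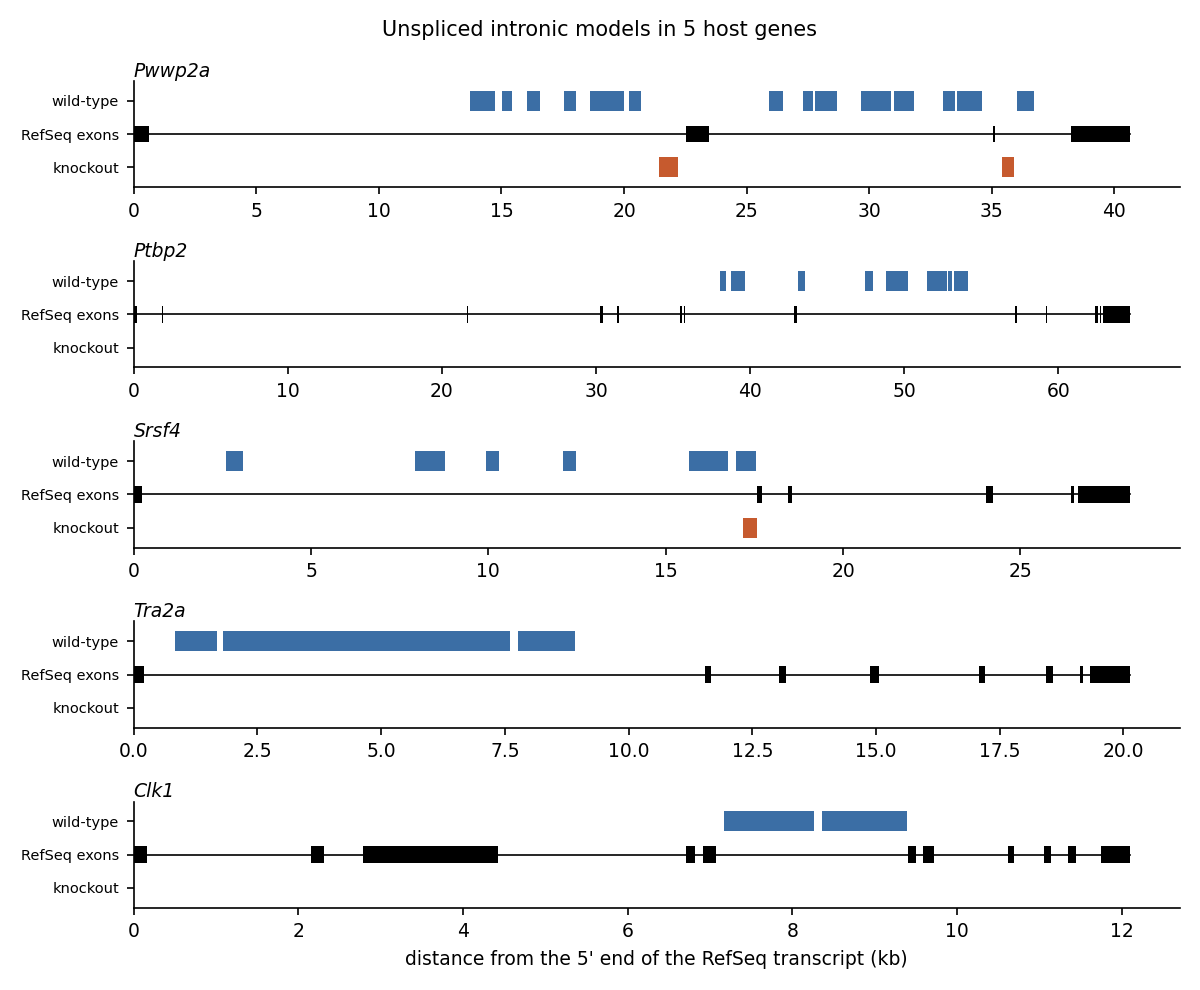
Unspliced intronic models of the wild-type (blue, above) and knockout library (orange, below) in 5 host genes, beside the exons of the longest RefSeq transcript (black); the horizontal axis is the distance from its 5′ end in kb. Pwwp2a shows 14 models for the wild type and 2 for the knockout, Ptbp2 8 and none, Tra2a 3 and none, and Clk1 2 and none, and no knockout model of Pwwp2a overlaps a wild-type one. The transcript drawn for Clk1 is not the one by which its intron 7 was numbered.

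The other lists held 1 to 7 loci each, in 1 gene of each list but the imprinted one; 14.4% and 9.08% of all genes had a locus for the wild type and knockout. Of 8 measured genes of DNA methylation, Tet2, which oxidises 5-methylcytosine, had 1 locus of 1.21 FPKM in the wild-type library. Of 13 genes of the piRNA pathway, Piwil4, the nuclear Argonaute protein that guides methylation of transposons, had 1 of 4.47 FPKM in the wild-type library. Of 20 spermatogonial genes, Gfra1, the co-receptor for GDNF on undifferentiated spermatogonia, had 1 of 4.28 FPKM in the knockout library. Of 16 mitotic genes, Smc2, a condensin subunit, had 2 loci of 5.18 and 8.08 FPKM in the wild-type library, where the gene stood at 22.7 FPKM, against 9.92 FPKM in the knockout library. Of 16 imprinted genes, 4 (25%) hosted a locus in the wild-type library (Zim1, Rasgrf1, Gnas and Impact) and 2 (12.5%) in the knockout library (Zim1 and Mirg), all at 3.30 FPKM or less. The places in Zim1 differed between the libraries.

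Some hosts carried many loci. In the wild-type library 372 hosts had 3 or more loci and 87 had 5 or more, against 75 and 10 hosts in the knockout library. Pwwp2a, whose product binds H2A.Z nucleosomes, and Kcnc2, a potassium channel, had 16 loci each. In Pwwp2a 14 of them were seen in the wild-type library only, at 1.52 to 3.55 FPKM, and the other 2 in the knockout library only, at 1.63 and 3.35 FPKM, with the gene at 14.3 and 14.6 FPKM. The RefSeq transcripts of Pwwp2a alone stood at 8.67 and 1.44 FPKM, so the equal host levels rest on the assembled models. In Kcnc2, by contrast, the libraries had 11 and 10 loci, 5 of them shared, all in intron 2 over 78.1 kb, with the gene at 8.19 and 5.12 FPKM, all of it from assembled models, since its RefSeq transcripts were listed at 0 in both. Kansl1l had 11 loci for the wild type and 1 for the knockout. The next hosts had more even or smaller numbers: Zfp982 had 8 and 7 loci, Cntn6 6 and 6, Abca16 10 and 3, Ngly1 8 and 3, and Purg 10 and 1. In the wild-type and knockout library Zfp982 stood at 6.67 and 1.74 FPKM, Cntn6 at 3.39 and 9.18 FPKM and Abca16 at 4.21 and 2.20 FPKM. Ngly1 stood at 7.94 and 5.85 FPKM and Purg at 0 and 8.27 FPKM. On RefSeq transcripts alone Ngly1 stood at 1.54 and 5.85 FPKM, the opposite order, and Cntn6 and Abca16 were listed at 0 in both libraries. Zfp982 at 4.86 and 1.74 FPKM and Purg at 0 and 2.77 FPKM kept their order. Srsf4, Ptbp2, Susd4 (9 and 1), Pcmtd1 (8 and none) and Dnajb4 (7 and 2) were looked at after their values were seen. Susd4 stood at 17.3 and 33.5 FPKM, Pcmtd1 at 10.3 and 8.44 FPKM and Dnajb4 at 0 and 17.1 FPKM. On RefSeq transcripts alone Susd4 stood at 0 and 23.3 FPKM, Pcmtd1 at 4.50 and 2.86 FPKM and Dnajb4 at 0 and 14.0 FPKM. At 270 of all loci the host was listed at 0 in 1 library alone, which can be a failed estimate.

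The highest loci of a single library lay mostly in strongly expressed genes. In the wild-type library alone, Sf3b1, a core subunit of the U2 snRNP, had a locus of 26.8 FPKM in intron 4 (chr1:55015427-55015879). Eif4g1, the scaffold of the translation initiation complex, had 3 loci of 25.6, 24.4 and 23.1 FPKM side by side in its last intron (chr16:20689942-20691727), with the gene at 89.5 and 61.5 FPKM. Trir had 21.02, Scml2, a Polycomb protein of male germ cells, 20.8, Tsc22d1 20.6 and Taf15, an RNA-binding protein, 19.8 FPKM. None of these had any assembled model over the place in the knockout library. For 7 of the 8 loci, all but that of Scml2, the FPKM is above its own upper bound (20.95 FPKM for Sf3b1), so their levels are uncertain.

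In the knockout library alone, the highest locus was in intron 7 of Snrnp70, which encodes a protein of the U1 snRNP (chr7:45382070-45383121, 27.5 FPKM). Here the wild-type library had a spliced model of 8 exons with 25.01 FPKM and an unspliced model of 14920 nt with 4.51 FPKM over the same place, both outside the rule. Arglu1, known for an intron kept in its mRNA, had a locus of 24.4 FPKM in intron 2, over which the wild-type library had a model of 3 exons with 35.6 FPKM. Ccnl2, a cyclin of splicing speckles (16.8 FPKM), was likewise covered by a model of 7 exons with 30.5 FPKM. Tead1 (21.5 FPKM) and Anapc5 (16.2 FPKM) had wild-type models of 213 and 262 nt there, under the length minimum. Ankrd33b had 25.8, Pkm, a glycolytic enzyme, 24.4 and Smarca4, the ATPase of BAF complexes, 18.4 FPKM, with no wild-type model of any kind. For 5 of these 8 loci, then, the wild-type library listed RNA at the same place in another form. All 8 knockout values are above their upper bounds, 26.8 FPKM for Snrnp70 and 16.2 FPKM for Arglu1.

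The 502 loci seen in both libraries were centred near equal levels. Their log2 ratio of knockout to wild-type, on FPKM summed over the models of a locus with 1 FPKM added, had a median of -0.05, with 5th and 95th percentiles of -1.15 and 0.96. At least 2-fold higher in the knockout library were 23 loci (4.58%) and at least 2-fold lower 33 (6.57%). Over 12519 genes that reached 1 FPKM in each library the shares were 4.76% and 1.85%, and the median was 0.21. The sum counts a locus more than once where the program cut it into several models. On the mean FPKM over the covered bases, chosen after seeing the data, 8 loci were at least 2-fold higher and 15 lower, and 22 of the 56 loci above kept their difference. With the ratio centred on the median gene, 17 were at least 2-fold higher and 52 lower on the summed FPKM. The ratio of the locus and that of its host were loosely related over 407 loci whose host was measured (Pearson 0.12, Spearman 0.15), a description across loci of the same libraries.

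**Figure D4:**
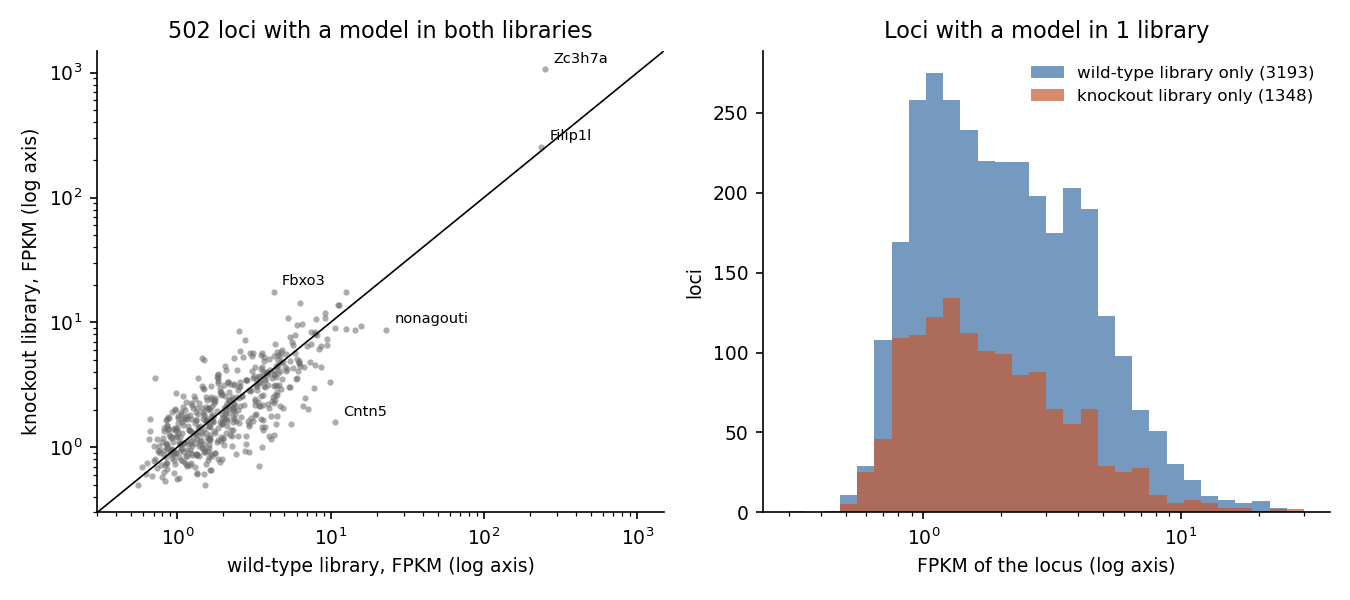
Left, FPKM of the 502 loci seen in both libraries, as the mean over covered bases, in the wild-type (horizontal, log axis) and knockout library (vertical, log axis); the line marks equal levels, Zc3h7a lies above it and Cntn5 and nonagouti (the gene a) below. Right, number of loci (vertical axis) by summed FPKM (horizontal, log axis) for the 3193 loci seen in the wild-type library only (blue) and the 1348 in the knockout library only (orange): both histograms are highest near 1 FPKM.

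Loci with 1 model in each library show differences that do not come from the sum. The highest of all lies in intron 19 of 22 of Zc3h7a, a zinc finger protein (chr16:11143904-11144444), at 250 FPKM for the wild type and 1073 FPKM for the knockout, a log2 ratio of 2.097. GENCODE places a small RNA gene there, Gm23935, and the host was at 15.6 and 22.9 FPKM. Both values are above their own upper bounds, 182 and 642 FPKM, so the size of the difference is uncertain. The next highest, in intron 1 of Filip1l (chr16:57391112-57391682), stood at 237 and 256 FPKM. Fbxo3, an F-box protein, stood at 4.24 FPKM for the wild type and 17.6 FPKM for the knockout in its last intron (log2 ratio 1.83). The gene stood at 27.0 and 14.9 FPKM. There too the knockout value is above its upper bound, 15.1 FPKM. The locus overlaps GENCODE exons of Fbxo3 itself, of a protein-coding and a processed transcript, so it is intronic by RefSeq only.

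Lower in the knockout library was a locus in intron 3 of Cntn5, a neural adhesion protein (chr9:10298599-10301727, 3129 nt), at 10.7 FPKM for the wild type and 1.58 FPKM for the knockout (log2 ratio -2.18). The host was listed at 0 and 0.233 FPKM, and the locus lies 117308 nt from the nearest exon of the host. A locus of 9505 nt in intron 1 of the agouti gene, a, stood at 23.0 and 8.74 FPKM (log2 ratio -1.30). It overlaps an exon of Gm14226 that GENCODE classes as protein-coding, and its host a was listed at 0 and 2.83 FPKM. In both cases the bounds of the libraries did not overlap. Over the 502 loci the wild-type bounds lay wholly above the knockout bounds at 40 and below them at 36. These bounds were summed over the models of a locus. At the 103 loci with more than 1 model in a library, the same stretch can therefore enter the bounds more than once, although each locus is counted once. The same count was not made over all genes, so these numbers have no background share.

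Other large ratios shrank when each covered base was counted once. Tcf3, a helix-loop-helix transcription factor, had 12.7 FPKM in the wild-type and, over a pair of models, 35.2 FPKM in the knockout library, a log2 ratio of 1.41 that became 0.45. Ccdc136 went from 1.67 to 0.31, Rps6kc1 from 1.52 to 0.23, Ccs from 1.43 to 0.41 and Thada from 1.57 to 0.71. On the lower side Cep85 went from -1.52 to -0.71, Slc47a2 from -1.82 to -0.57, 3300002I08Rik from -1.69 to -0.64, Rbck1 from -1.54 to -0.63, Oasl2 from -1.44 to -0.63 and Ascc2 from -1.44 to -0.56. Acsl3 (-2.05 to -1.14, over an exon of Utp14b) and Dnaaf1 (1.57 to 1.44) stayed beyond 2-fold. Among the highest loci, 1810013L24Rik (16.2 and 11.6 FPKM), Arhgef1 (11.3 and 13.8 FPKM), Cyth2 (11.2 and 13.8 FPKM) and Plekhg2 (14.3 and 8.62 FPKM) differed by less than 2-fold, Mro went from 1.35 to 0.50, and the ratio of Efhc2 changed sign, from 1.00 to -0.60.

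Among the longest loci were those in Ccl25 (9908 nt), Pdzk1 (9109 nt) and Enoph1 (8947 nt), beside that of a, and each was seen in both libraries. In Ccl25, a chemokine, and Enoph1 the host was listed at 0 in both libraries, which can be a failed estimate and does not show that the gene is silent. A locus in Osbpl7 (chr11:97062473-97065520, 0.860 and 1.23 FPKM) is the one that holds a mature miRNA of the RefSeq table, mmu-miR-8103, shown with its seed, bases 2 to 8, in capitals.
mmu-miR-8103: uCUCCUGUucucuguucuccc

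Hosts below 0.5 FPKM in both libraries held 325 loci in 191 genes. Of these loci, 144 were seen in the wild-type library only, 127 in the knockout library only and 54 in both. Their hosts were listed at exactly 0 in both libraries for 132, 86 and 41 loci. An exact 0 in these files can be a failed estimate, so most of these hosts cannot be taken as silent. Ankrd33b, with 25.8 FPKM in the knockout library against a host of 0.0798 and 0.216 FPKM, was the highest of them. Adgrg2, a receptor of the male reproductive tract, had 6.31 and 14.3 FPKM in intron 15, with values above their upper bounds in both libraries. A locus of 3238 nt in 3110056K07Rik had 10.5 FPKM in the knockout library only, and Chaserr, a noncoding RNA gene, had 5 loci of up to 8.29 FPKM in the wild-type library only.

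The minimum length sits where short models are listed at high levels. Just below it, from 250 nt, there were 152 further intronic models for the wild type and 77 for the knockout, with median levels of 7.84 and 7.57 FPKM. Just above it, within the next 50 nt, there were 177 and 86, with medians of 5.20 and 5.15 FPKM. The median was 1.11 and 1.07 FPKM for models from 1000 nt to below 2000 nt. The FPKM lay outside its own bounds for 202 wild-type models (5.32%) and 110 knockout models (5.64%), of which 188 and 103 were shorter than 500 nt.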

How the data were processed

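Poly(A)-selected, random-primed RNA of 1 wild-type and 1 Dnmt3l knockout library was read as paired ends of 100 nt, per the labels' protocols. Per the submitters' processing notes, which give no settings, the tools were CASAVA 1.9, TopHat2 2.0.8 and Cufflinks 2.1.1, on mm10. The authors deposited, for each library, 1 annotation file that gives FPKM, bounds of the FPKM and coverage for RefSeq transcripts and for models assembled from the reads. Models were filtered by the rule given in the report, merged where they overlapped by at least 1 base, and a locus was given the sum of the FPKM of its models. Host levels sum the RefSeq transcripts of a gene and the assembled models of 300 nt or more that share its exon bases, where models without strand needed a share of 0.5. Ratios are log2((knockout FPKM + 1)/(wild-type FPKM + 1)), and a fold change on this scale understates that of low loci. RefSeq transcripts were given symbols by accession for 28942 of 30079, by the GENCODE M21 RefSeq table for 174 and by exon overlap for 884; 79 had none. Sequences were cut from GENCODE M21 transcripts, and the coordinates were checked on 2183 RefSeq promoter windows, all identical; loci on chromosome 18 were left out of the sequence counts.

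Samples were grouped by the genotype in their labels, and no test was made. Depth is unknown, since counts are not in the files, and the bounds describe the FPKM estimate of 1 library only. Loci named are the 12 with the highest mean and the 8 with the highest and the lowest ratio among those seen in both libraries (5 FPKM or more in the higher library for the ratios), the 8 highest of each single library, the 8 hosts with most loci, the 5 longest, and up to 4 of each gene list (1 of the longest is not reported here); hosts below 0.5 FPKM were ranked after seeing the data. The members and lists were chosen with earlier results of these data known. Alternatives were minimum lengths of 500 and 1000 nt, a distance of 100 nt to exons, a lower bound above 0, merging within 500 nt, loci without GENCODE exons, pseudocounts of 0.1 and 5, centring, the highest model, the coverage, 5 FPKM or more, and RefSeq transcripts only; the others were chosen after seeing the data. Tested on simulated data drawn from 502 loci (knockout against wild-type), 200 of 200 loci changed 4-fold were recovered and 0 unchanged loci were called, which checks the arithmetic and says nothing of how reliable the 2-fold counts are. Python 3.11.15, numpy 2.4.6 and matplotlib 3.10.9 were used.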

Additional observations from a re-analysis of the deposited data

How the results depend on the processing

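The excess of loci seen in the wild-type library only over those seen in the knockout library only, 2.37-fold, kept its direction under the 7 settings run for these counts, at 2.17 to 2.81; a lower bound above 0 removed no locus and so was no check. Of 88 values under 18 settings, 58 stayed within the margin (1.5-fold for counts and levels, 0.1 for log2 medians) and 30 moved; the cause was not tested. With a minimum of 1000 nt, 170 loci were seen in both libraries, 1171 with the wild type only and 477 with the knockout only, and 1 and 6 were at least 2-fold higher and lower in the knockout library; with 500 nt the last were 9 and 21. Without loci over GENCODE exons, 313 were seen in both, with 11 higher and 17 lower. With any assembled model counted, an alternative chosen after seeing the data, 1018 were seen in both. Against the reported 23 higher and 33 lower, a pseudocount of 0.1 gave 49 and 67, a pseudocount of 5 gave 6 and 6, the highest model 11 and 17, the mean over covered bases 8 and 15, and loci with 1 model in each library 7 and 13, the last 2 chosen after seeing the data. Coverage gave 57 higher and 44 lower, the opposite order. There the 1 was added to the coverage, which is a smaller addition than 1 FPKM. Merging within 500 nt gave 34 and 68, centring on the median gene (0.21) 17 and 52, and loci of 5 FPKM or more 16 and 17. The median log2 ratio of loci, -0.05, was -0.25 after centring, 0.0705 with coverage and 0.0566 for loci of 5 FPKM or more, so its sign depends on the scale. With RefSeq transcripts only, the median log2 ratio of hosts was -0.0351 and the median ratio of locus to host 0.354, against 0.11 and 0.215 as reported. No replicate could be left out with 1 library per genotype. No paired analysis was possible because each genotype has 1 library. The share of repeats was not run. The files hold no counts, so the depth needed for a model to be assembled cannot be stated, and a locus without a model in a library has no upper limit.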
